A study of Mus musculus with 2 samples.

Results

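The cells described here are the tumor cells richest in RNA of 4 genes, Ivl, Mmp3, Megf10 and Chsy3, within mouse pancreatic tumors. Their number is 526 of 10513 base tumor cells, out of 24282 cells in all. Base tumor cells were barcodes with at least 3000 unique molecular identifiers (UMIs, counted RNA molecules), at most 1 UMI of the leukocyte gene Ptprc, under 0.3% of UMIs from Col1a1, Col1a2 and Col3a1, at least 0.2% from Krt8 and Krt18, and under 0.04% from Epcam. They are therefore keratin-positive cells with little Epcam. The 526 cells are the 5% with the largest summed share of the 4 genes, taken over both libraries together, so they were selected on measured values. Their levels of these 4 genes are a description of that choice, and so is every gene that differs between them and the other 9987 base cells.

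The study profiled orthotopic KPC tumors, a genetically defined pancreatic cancer model grown in the mouse pancreas. The animals were given the solvent DMSO or EIPA at 10 mg/kg, an amiloride derivative that blocks sodium-proton exchangers and macropinocytosis. Each of the 2 samples was a pool of 4 flash-frozen tumors, prepared as a fixed cell suspension and read with gene-specific probes, so levels are compared between cells and not between genes. The labels do not tie the library number carried by each barcode to a treatment, so values are given for library 1 and library 2 and no treatment direction is drawn.

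Involucrin, the product of Ivl, is a precursor of the cornified envelope, the protein shell that transglutaminases crosslink under the membrane of squamous epithelial cells. It is a marker of stratified epithelium. Mmp3 (stromelysin 1) cuts matrix proteins and activates other metalloproteinases, Megf10 is an engulfment receptor for apoptotic cells, and Chsy3 builds chondroitin sulfate chains. Transcription factors of the AP-1 family, which act downstream of MAPK signaling, bind TGANTCA elements and are known regulators of both involucrin and stromelysin genes.

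The 2 selecting genes that can be shown here with their upstream sequence, Ivl and Mmp3, and Ripply1, a gene outside the choice that was 2-fold higher in the selected cells but not without its 3 highest cells, each hold 1 such element close to the start site. The 150 bases before the RefSeq start (GRCm38.p6) are given 5′ to 3′ along the gene, with the match in capitals. They lie at chr3:92573736-92573885 on the minus strand, chr9:7445672-7445821 on the plus strand and chrX:139782354-139782503 on the minus strand.
Ivl: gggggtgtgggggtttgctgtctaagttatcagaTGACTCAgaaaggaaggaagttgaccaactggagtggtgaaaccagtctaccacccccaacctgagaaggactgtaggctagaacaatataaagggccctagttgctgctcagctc
Mmp3: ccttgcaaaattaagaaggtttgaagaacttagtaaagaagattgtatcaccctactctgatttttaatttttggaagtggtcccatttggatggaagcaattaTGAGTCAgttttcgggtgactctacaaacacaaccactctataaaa
Ripply1: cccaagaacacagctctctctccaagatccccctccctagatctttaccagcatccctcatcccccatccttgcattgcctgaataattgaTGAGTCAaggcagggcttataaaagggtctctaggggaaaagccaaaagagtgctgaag
The first base of the element lies at -116 in Ivl, -46 in Mmp3 and -59 in Ripply1, counted from the start site. TGANTCA was searched on both strands of all RefSeq windows from 250 bases before to 50 after a start, and the element reads the same on both strands apart from its middle base. It occurred in 2565 of 32851 windows (7.81%), in 4.98% of the windows of tested genes, and in 6 of 60 windows (10.0%) of genes at least 1.5-fold higher in the selected cells of both libraries. Of the windows of genes at least 2-fold lower, 6.80% held it. The windows of Adra2a, Slc20a1, Id3 and Cdh6, the other genes at least 2-fold higher, did not hold it. A match describes these letters and shows no bound factor.

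Both libraries were deep and alike in depth within the selected cells. Library 1 held 12337 cells with 203459556 UMIs and library 2 held 11945 cells with 185474400. The selected cells had a median of 17424 and 18481 UMIs (8874163 and 2168563 in all) and 5689 and 5708.5 genes, against 17361 and 17802 UMIs and 5756 and 5811 genes in other base cells. Their median mitochondrial share was 0.379% and 0.406%, against 0.373% and 0.492%. Of the barcodes, 225 occurred in both libraries, 16 selected cells carried one, and in no pair were both cells selected. Doublets were kept, as the rule for the cells does, but scored. Among the selected cells 4.55% and 3.70% had a doublet score in the top range expected for the library, against 11.8% and 10.4% of other base cells. Without the highest-scoring cells library 1 supplied 79.5% of the chosen cells, and without the shared barcodes 80.0%. Each treatment has a single library, and cells cannot stand in for replicates. Intervals are therefore exact 95% intervals that cover counting error only, and no test across samples could be made.

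Selected cells were more frequent in library 1. They made up 418 of 5213 base cells there, 8.02% (exact Clopper-Pearson interval 7.30 to 8.79), and 108 of 5300 in library 2, 2.04% (1.67 to 2.46). Library 1 thus supplied 79.5% of them (75.8 to 82.8). The same share was 82.1% when the top 2.5% of cells was taken and 77.4% for the top 10%. Within each range of UMIs per cell from 3000 upward the order held, at 6.64% to 9.14% in library 1 and 1.64% to 2.23% in library 2. Ivl was lower in library 2 outside the base cells too. Scaled to a total of 1000000 UMIs (CPM), it stood at 164 and 73.2 CPM in Epcam-high tumor cells, at 115 and 58.3 CPM in Ptprc-positive cells, and at 109 and 53.7 CPM in collagen-high stromal cells.

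The choice cut a continuous range and did not separate a distinct group. The summed share of the 4 genes ranged without a gap at the cut from a median of 0.0245% over base cells to a highest value of 0.669%. The lowest selected cell had 0.1663% and the highest cell not taken 0.1661%. Within 10% of the cut lay 101 selected cells above it and 142 others below it. The selected cells are thus the upper end of a range, not a type.

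**Figure D1:**
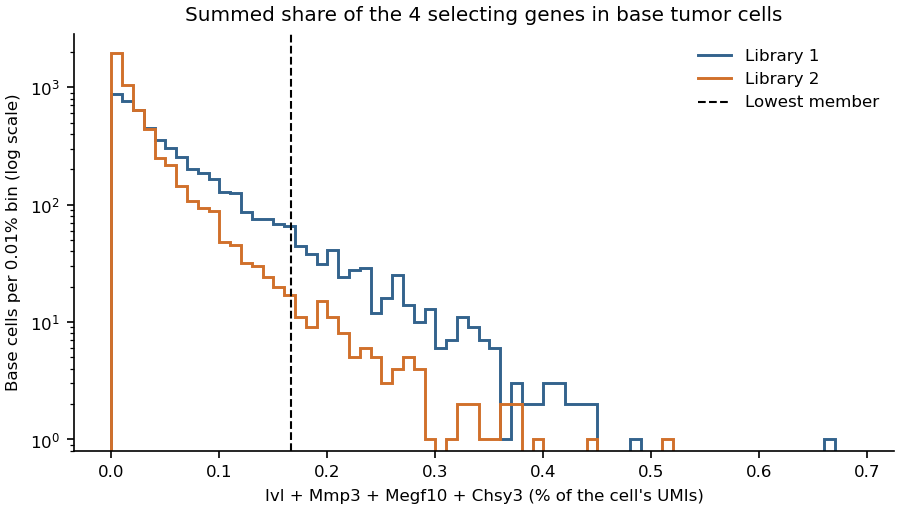
Number of base tumor cells (vertical, log scale) in bins of the summed share of Ivl, Mmp3, Megf10 and Chsy3 (horizontal, % of the cell's UMIs), with library 1 in blue, library 2 in orange and the lowest selected cell dashed. Both libraries decline without a gap at the cut, and library 1 holds more cells at every share above it up to 0.3%.

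Involucrin defined the group far more than stromelysin did. Ivl gave 82.8% of the UMIs of the 4 genes in selected cells, Mmp3 9.75%, Chsy3 4.27% and Megf10 3.22%. Ivl was the most abundant of the 4 in 497 cells (94.5%), Mmp3 in 29, and Megf10 or Chsy3 in none. All 4 genes had a UMI in 132 cells of library 1 (31.6%) and 13 of library 2 (12.0%), while 56 and 21 cells had only 1 of them. The name that fits these data is therefore involucrin-high tumor cells, and it is used from here on.

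Ivl stood at 1941 CPM in involucrin-high cells of library 1 (1912 to 1970) and 2083 CPM in library 2 (2023 to 2145), against 350 and 192 CPM in other base cells. Single cells ranged from 0 to 6260 CPM around a median of 1885 in library 1, and from 186 to 5118 CPM around 1939 in library 2. The other base cells had medians of 214 and 79.7 CPM and reached 1652 and 1659 CPM, so the ranges overlap. Ivl had a UMI in 99.8% and 100% of involucrin-high cells and in 85.0% and 68.5% of other base cells. In Ptprc-positive cells, which should lack the gene, it had one in 40.8% and 21.5%, at median depths of 4372 and 4381 UMIs. With every base cell thinned to 3000 UMIs the shares were 97.8% and 98.1% of involucrin-high cells, 50.8% and 32.1% of other base cells, and 29.1% and 12.5% of Ptprc-positive cells.

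Mmp3 marked a subset. It stood at 257 CPM against 68.7 CPM in library 1 and at 130 CPM against 44.2 CPM in library 2, where 3 cells held 45.4% of its UMIs. It had a UMI in 60.5% of involucrin-high cells of library 1 and 38.0% of library 2, compared with 44.2% and 30.2% of other base cells. After thinning the shares were 32.3% and 14.8% against 14.6% and 9.57%, and Ptprc-positive cells had 5.83% and 6.25% unthinned. The median cell stood at 63.6 CPM in library 1 and at 0 in library 2. In collagen-high stromal cells, a known source of stromelysin, Mmp3 stood at 98.8 and 30.4 CPM, with 3 cells holding 51.0% and 43.8% of its UMIs. The 29 cells led by Mmp3 carried it at 1425 CPM (1330 to 1524) against 165 CPM in the other selected cells, with Ivl at 581 CPM. The neighboring collagenase gene Mmp13 was at 1262 CPM in them (1173 to 1356) against 735 CPM. Mmp10, which also lies beside Mmp3, went the other way, at 6.78 CPM (1.85 to 17.4) against 47.9 CPM (43.8 to 52.3).

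Megf10 stood at 82.8 CPM against 32.9 CPM in library 1 and at 50.7 CPM against 25.1 CPM in library 2. Chsy3 stood at 108 CPM against 31.3 CPM and at 74.7 CPM against 13.8 CPM. Megf10 had a UMI in 59.8% and 50.9% of involucrin-high cells (17.9% and 13.0% after thinning) against 29.9% and 26.0% of other base cells. Chsy3 had one in 58.4% and 46.3% (19.6% and 17.6% after thinning) against 27.7% and 17.01%. Ptprc-positive cells had UMIs of Megf10 in 4.85% and 0% (0 of 754299 UMIs, with an interval up to 4.89 CPM) and of Chsy3 in 0.971% and 1.39%.

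The level of a gene that chooses cells is inflated by its own counting noise, so the UMIs of each cell were divided at random, cells were chosen on one part and levels read on the other. On unused UMIs the log2 ratio of chosen to other base cells was 2.31 and 3.33 for Ivl, 1.83 and 1.30 for Mmp3, 1.27 and 0.86 for Megf10, and 1.72 and 2.40 for Chsy3. On these counts of few UMIs per cell, the 4 genes varied together weakly. Over thinned base cells the Spearman correlations between pairs lay from 0.04 to 0.13 over 5213 cells of library 1 and from -0.03 to 0.09 over 5300 cells of library 2, where cells of a library share its free RNA. Over the unthinned shares of the same cells they lay from 0.16 to 0.41 in library 1, the highest for Megf10 with Chsy3, and from -0.007 to 0.23 in library 2. When cells were chosen on the other 3 genes, Ivl stood at a log2 ratio of 1.07 in library 1 and 0.57 in library 2, and only 154 cells (29.3%) were shared with the original choice. Chosen without Mmp3, the cells had a log2 ratio of 0.82 and 0.34 for Mmp3, and in library 2 its UMIs occurred in 29.8% of them against 30.4% of other base cells. Chosen without it, Chsy3 was at 1.53 and 2.09, and Megf10 at 1.16 and 0.68.

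Few genes stood much higher in involucrin-high cells, while many stood lower. Of 8124 tested genes (at least 20 CPM in either group of each library, without the 4 selecting genes), 5 were at least 2-fold higher in both libraries (0.0615%) and 169 at least 2-fold lower (2.08%). At 1.5-fold, a threshold added after the data were seen, 66 were higher (0.812%) and 360 lower (4.43%). The median log2 ratio over tested genes was -0.04 in library 1 and -0.01 in library 2. The choice rests on Ivl: in cells chosen on the other 3 genes, 1 gene was 2-fold higher and 47 lower, and 42 of the 169 lower genes (24.9%) were shared. With all cells thinned to 3000 UMIs 0 were higher and 110 lower, and without the 3 highest cells of each gene 2 were higher. No gene was 2-fold higher in one library and 2-fold lower in the other. In bulk sums of this kind fewer cells with a gene and less RNA per cell cannot be told apart, so detection is given with the levels.

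**Figure D2:**
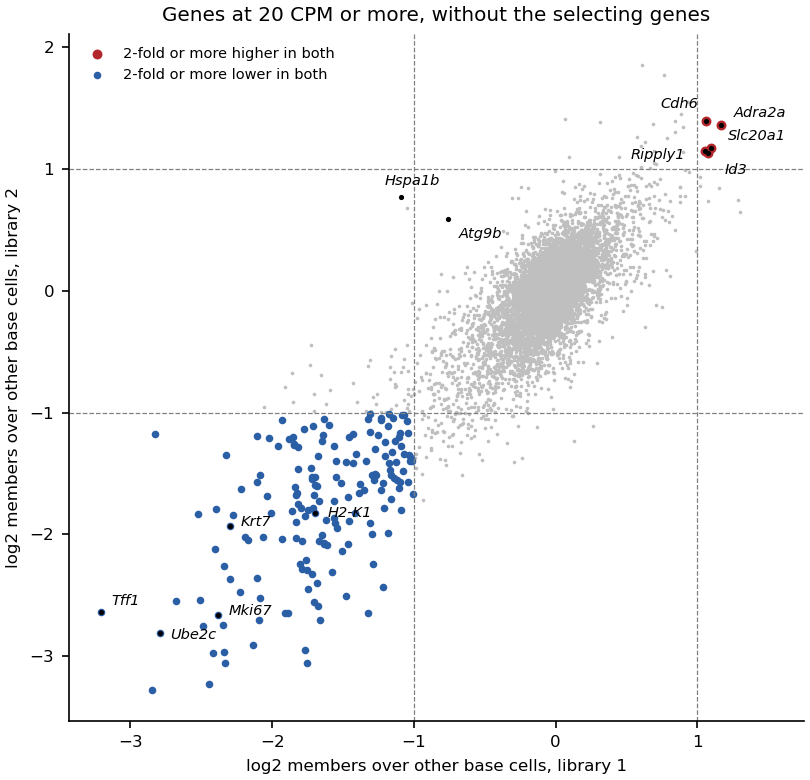
Log2 ratio of involucrin-high cells to other base cells in library 1 (horizontal) and library 2 (vertical), 1 point per tested gene, with genes at least 2-fold higher (red, 5 genes) or lower (blue, 169 genes) in both. The 5 red genes end at 1.17 in library 1 and 1.39 in library 2, Tff1 reaches -3.21, and Atg9b and Hspa1b lie on opposite sides of 0 in the libraries.

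The 5 higher genes differ in function. Slc20a1, a sodium-dependent phosphate transporter, stood at 790 CPM (771 to 809) against 369 CPM in library 1 and at 777 CPM (741 to 815) against 346 CPM in library 2. It was found in 93.8% and 95.4% of involucrin-high cells, so it was more abundant per cell, with medians of 480 and 426 CPM against 237 and 236 CPM. Cdh6, a classical cadherin of kidney and mesenchyme, stood at 356 against 170 CPM and at 350 against 133 CPM, with a UMI in 90.0% and 90.7% of cells compared with 76.2% and 70.2%. Id3, an inhibitor of basic helix-loop-helix factors and a BMP target, stood at 118 against 55.5 CPM and at 123 against 55.6 CPM. Adra2a, the alpha-2A adrenergic receptor, stood at 30.5 against 13.0 CPM and at 48.0 against 18.1 CPM. Ripply1, a transcriptional repressor of somite development, stood at 26.5 against 12.2 CPM and at 27.2 against 11.8 CPM, where 3 cells held 40.7% of its 59 UMIs in library 2. Without the 3 highest cells of each library its log2 ratios were 0.72 and 0.47, below 2-fold, and with the top 2.5% of cells it was at 0.15 in library 2. In cells chosen without Ivl, Slc20a1 was at 0.88 in library 1 and -0.074 in library 2, while the other 4 were above 0 in both. Adra2a and Ripply1 had UMIs in only 37.8% and 23.4% of involucrin-high cells of library 1 and in 41.7% and 20.4% of library 2. For each of the 5 the counting intervals of the groups lay apart in both libraries, but the ranges of single cells overlapped.

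Among the genes 1.5-fold higher, chosen after their values were seen, were growth-factor, matrix and cornified-envelope genes. Lor, the cornified-envelope protein loricrin, stood at 80.2 against 41.6 CPM and at 88.5 against 29.7 CPM. Fn1, fibronectin, stood at 11005 against 6617 CPM and at 9893 against 5258 CPM. The angiotensin-converting enzyme gene Ace stood at 385 against 190 CPM and at 235 against 122 CPM, and the growth-arrest gene Gas1 at 235 against 105 CPM and at 166 against 92.4 CPM. Socs2, a feedback inhibitor of cytokine signaling, stood at 212 against 112 CPM and at 250 against 125 CPM. Angptl4, an inhibitor of lipoprotein lipase, stood at 543 against 295 CPM and at 652 against 360 CPM. Grem1, a secreted BMP antagonist, stood at 208 against 113 CPM and at 183 against 107 CPM.

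Of the other 2-fold lower genes those with the most negative ratios outside the lists below were Myh14, Lgals2, Neurl1b and Sult1c2, at -2.12 to -2.91. They code for a nonmuscle myosin heavy chain, a galectin, a ubiquitin ligase and a sulfotransferase.

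Among squamous genes a few envelope precursors stood higher with involucrin, while most tested genes of the list stood lower. The lower ones included the envelope gene Ppl and the desmosome genes Dsp, Dsc2 and Dsg2. The list held 50 genes of cornification and stratified epithelium, of which 49 were measured and 11 passed the filter on low levels. Of these, 0 were 2-fold higher and 2 were 2-fold lower, beside 0.0615% and 2.08% of all tested genes. The medians were -0.68 and -0.47 beside -0.04 and -0.01 for all tested genes. Sprr1a, a small proline-rich envelope precursor, stood at 775 against 475 CPM (log2 0.70) and at 753 against 366 CPM (1.04), and Lor at a log2 ratio of 0.93 and 1.54. Sprr2h, another small proline-rich gene that did not pass the filter, was at 21.1 against 4.64 CPM over both libraries (233 UMIs), with 3 cells holding 51.3% of its UMIs in library 1 and 48.0% in library 2. Sprr1b was at 2.45 against 0.683 CPM, from 27 UMIs. Tgm2, tissue transglutaminase, was at 0.21 and -0.19. Dsp, the plaque protein desmoplakin, was at 48.2 against 160 CPM (-1.71) and 50.7 against 111 CPM (-1.11), Dsc2 at -1.63 and -2.08, and Dsg2 at -1.91 and -0.79. Pkp1, the desmosome protein plakophilin-1, which did not pass the filter, was at 17.4 against 12.7 CPM over both libraries (192 UMIs). The p63 target Perp was at -1.86 and -0.68. Of the 49 measured genes, 17 had 0 UMIs in involucrin-high cells, where 3 UMIs over both libraries would stand at 0.272 CPM. They included the squamous lineage factor Trp63, the basal keratin Krt5, the keratins Krt6a, Krt6b, Krt17 and Krt1, and the desmogleins and desmocollins Dsg3 and Dsc3. These genes were close to absent in all cells of the series, with 2 at 0 UMIs and none above 115 UMIs. The envelope transglutaminases had 5 UMIs (Tgm1) and 2 UMIs (Tgm3) in involucrin-high cells.

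Glandular and junction genes stood lower. Of 15 tested genes of the mucin and glandular list 8 were 2-fold lower and 0 higher, beside 2.08% and 0.0615% of all tested genes. The list medians were -1.04 and -1.17. The trefoil peptide Tff1 stood at 69.4 against 650 CPM (log2 -3.21) and at 58.1 against 366 CPM (-2.63), and Tff2 at 62.1 against 321 CPM and 49.8 against 340 CPM. The Tff1 difference was largest in its extremes, but its medians and detection were lower too. Tff1 had a UMI in 63.4% and 52.8% of involucrin-high cells against 69.8% and 66.5% of other base cells. Single involucrin-high cells ended at 729 and 566 CPM while other base cells reached 34927 and 40335 CPM, and the medians were 48.5 and 31.1 CPM against 78.9 and 60.0 CPM. Muc5ac, a gel-forming gastric mucin, was at -2.83 and -1.17 with 40.6% and 63.0% of its UMIs in 3 cells. Muc1 was at -1.67 and -1.36, and Lgals4 at -1.72 and -1.53. The ductal and endodermal factors of the same list stayed under 1.5-fold. Sox9 was at 0.41 and 0.50, Foxa2 at 0.08 and 0.19, and Pdx1 at -0.24 and -0.40.

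In the list of epithelial junction and keratin genes 6 of 16 tested were 2-fold lower and 0 higher, beside 2.08% and 0.0615% of all tested genes. The list medians were -0.80 and -0.53. Krt7 stood at 104 against 516 CPM (-2.30) and at 111 against 426 CPM (-1.93), and Krt19 at 569 against 1413 CPM (-1.31) and 647 against 1448 CPM (-1.16). Tjp3, a tight-junction scaffold, was at -2.22 and -2.47, Cldn7 at -1.77 and -1.85, and the epithelial transcription factor Elf3 at -2.19 and -2.02. The adhesion gene Cdh1 was at -0.68 and -0.32. Krt8 and Krt18 were held up by the gate, at -0.40 and -0.60 and at -0.01 and -0.17, and Epcam, capped by it, was at -0.88 and -0.96.

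Mesenchymal genes stood on both sides of 0. Of 22 tested mesenchymal genes 9 were above 0 in both libraries and 9 below, with medians of 0.09 and -0.11. Of all tested genes 30.6% were above 0 in both and 42.0% below. At 2-fold 0 were higher or lower, near the 0.0615% and 2.08% of all tested genes. At 1.5-fold 4 were higher and 1 lower, where 0.812% and 4.43% of all tested genes were. Fn1 (0.73 and 0.91), Inhba (0.67 and 0.86), Col5a1 (0.66 and 0.71) and Tgfbi (0.76 and 0.66) were above 1.5-fold in both libraries. Vim, which codes for vimentin, was at -0.39 and -0.30, Thbs1 at -0.78 and -0.81, and Zeb1 at 0.04 and 0.13.

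Involucrin-high cells carried little cell-cycle RNA. All 18 tested genes of the proliferation list were below 0 in both libraries, where 3413 of all 8124 tested genes (42.0%) were. Of the 18, 14 were at least 2-fold lower, beside 2.08% of all tested genes, with list medians of -1.73 and -2.54. Mki67 stood at 6.09 CPM (4.57 to 7.94) against 36.0 CPM in library 1 and at 8.76 CPM (5.28 to 13.7) against 60.8 CPM in library 2, with a UMI in 11.2% and 14.8% of cells compared with 20.3% and 32.5%. Ube2c, a mitotic ubiquitin-conjugating enzyme, stood at 8.90 against 67.4 CPM and at 18.4 against 135 CPM, and Rrm2, a ribonucleotide reductase subunit, at 8.90 against 49.1 CPM and 12.9 against 108 CPM. In cells chosen without Ivl the list median of library 2 was 0.27, with Mki67 at 0.30 and Ube2c at 0.51, the opposite sign. The replication clamp Pcna was at -0.43 and -0.78. The arrest genes Cdkn1a (-0.01 and 0.50) and Cdkn2a (0.16 and 0.07) stayed under 1.5-fold, and of 17 tested p53 and senescence genes 0 passed 2-fold. Over all tested genes 0.0615% were 2-fold higher and 2.08% lower, so a count of 0 among 17 is near the background.

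Antigen-presentation genes were lower too. All 14 tested genes of the MHC class I and interferon list were below 0 in both libraries, where 42.0% of all tested genes were. Of the 14, 6 were 2-fold lower, beside 2.08% of all tested genes, with list medians of -0.93 and -1.20. H2-K1, a class I heavy chain, stood at 127 against 414 CPM (-1.70) and at 235 against 835 CPM (-1.83). Tap1, a subunit of the peptide transporter, was at -1.51 and -1.58, Nlrc5, the class I transactivator, at -1.22 and -1.58, and B2m at -0.76 and -1.03. In cells chosen without Ivl the library 2 median was 0.21. H2-K1 was higher in library 2 than in library 1 in both groups, with log2 ratios of 0.88 in involucrin-high and 1.01 in other base cells.

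Genes of growth-factor signaling mostly had ratios above 0. Of 24 tested MAPK target and EGF receptor ligand genes 16 were above 0 in both libraries, where 2484 of all 8124 tested genes (30.6%) were. The list medians were 0.30 and 0.28. At 2-fold 0 were higher and 1, the receptor Erbb3 (-1.89 and -2.65), was lower, beside 0.0615% and 2.08% of all tested genes. Areg, the ligand amphiregulin, was at 294 against 158 CPM (0.90) and 461 against 181 CPM (1.34), and Ereg, epiregulin, at 56.8 against 32.5 CPM (0.79) and 69.6 against 28.7 CPM (1.25). In cells chosen without Ivl, Areg was at 0.39 in library 1 and at -0.45 in library 2. Btc, another ligand, was at 0.62 and 0.70, Hbegf at 0.45 and 0.40, Tgfa at 0.31 and 0.34, and their receptor Egfr at 0.64 and 0.86. Dusp5, an ERK phosphatase, stood at 786 against 496 CPM and 1354 against 675 CPM, whereas Ccnd1 was at -0.78 and -0.80 and Spry1 at -0.48 and -1.05.

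Of 19 tested AP-1 and immediate early genes 11 were above 0 in both libraries (30.6% of all tested genes were), with medians of 0.07 and 0.18. Egr3 was at 0.89 and 1.45, but at -0.22 in library 2 in cells chosen without Ivl. Egr1 was at 0.61 and 0.60, while Fos was at -1.07 and -0.90 and Fosl1, another AP-1 subunit, at -0.16 and -0.06. Of 21 tested YAP and TEAD targets 0 passed 1.5-fold in both libraries, near the background of 0.812% higher and 4.43% lower over all tested genes. TGF-beta pathway genes were above 0 in both libraries for 15 of 18 tested genes (30.6% of all tested genes were), with medians of 0.20 and 0.39. Of the 18, 1, Id3, was 2-fold higher, beside 0.0615% of all tested genes. Inhba, which codes for the activin A subunit, stood at 834 against 523 CPM and 738 against 406 CPM. The Id genes, BMP and TGF-beta targets, were at 0.54 and 0.57 for Id1, 0.69 and 0.45 for Id2 and 1.07 and 1.13 for Id3, and Tgfb1 was at 0.36 and 0.57.

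In 3 lists of genes close in function to Mmp3, Chsy3 and Megf10, 0 tested genes were 2-fold higher and 2 were 2-fold lower, beside 0.0615% and 2.08% of all tested genes. Of 21 tested matrix protease and inhibitor genes 0 were 2-fold higher, with Mmp19 at 0.88 and 0.85, Timp1 at 0.70 and 0.68, Mmp10 at 0.99 and 0.32, and Mmp13 at 0.69 and 0.16, while the membrane protease gene Mmp15 was at -2.52 and -1.83. Of 17 tested chondroitin sulfate and hyaluronan genes 12 were above 0 in both libraries (30.6% of all tested genes were), with medians of 0.21 and 0.09. Csgalnact1, which starts chondroitin chains, was at 0.66 and 0.76, the hyaluronan synthase Has2 at 0.80 and 0.56, and Chsy1, the paralog of Chsy3, at 0.21 and 0.29. Of 18 tested engulfment and scavenger genes 0 were 1.5-fold higher and 3 lower, beside 0.812% and 4.43% of all tested genes. Gas6, the ligand of Axl, was lower at -1.51 and -2.14. Of 25 tested macropinocytosis and proton-exchange genes, of the process that EIPA blocks, 0 passed 1.5-fold in both libraries in either direction, with medians of -0.07 and -0.05. Of all tested genes 0.812% were 1.5-fold higher and 4.43% lower, so a count of 0 among 25 is near the background. Slc9a2, a sodium-proton exchanger, was at 0.46 and 0.75. Hypoxia and glycolysis genes had medians of 0.002 and 0.03, and ATF4 targets -0.04 and 0.14. Cholesterol synthesis genes had medians of -0.18 and -0.43, with 17 of 19 below 0 in both libraries (42.0% of all tested genes were).

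**Figure D3:**
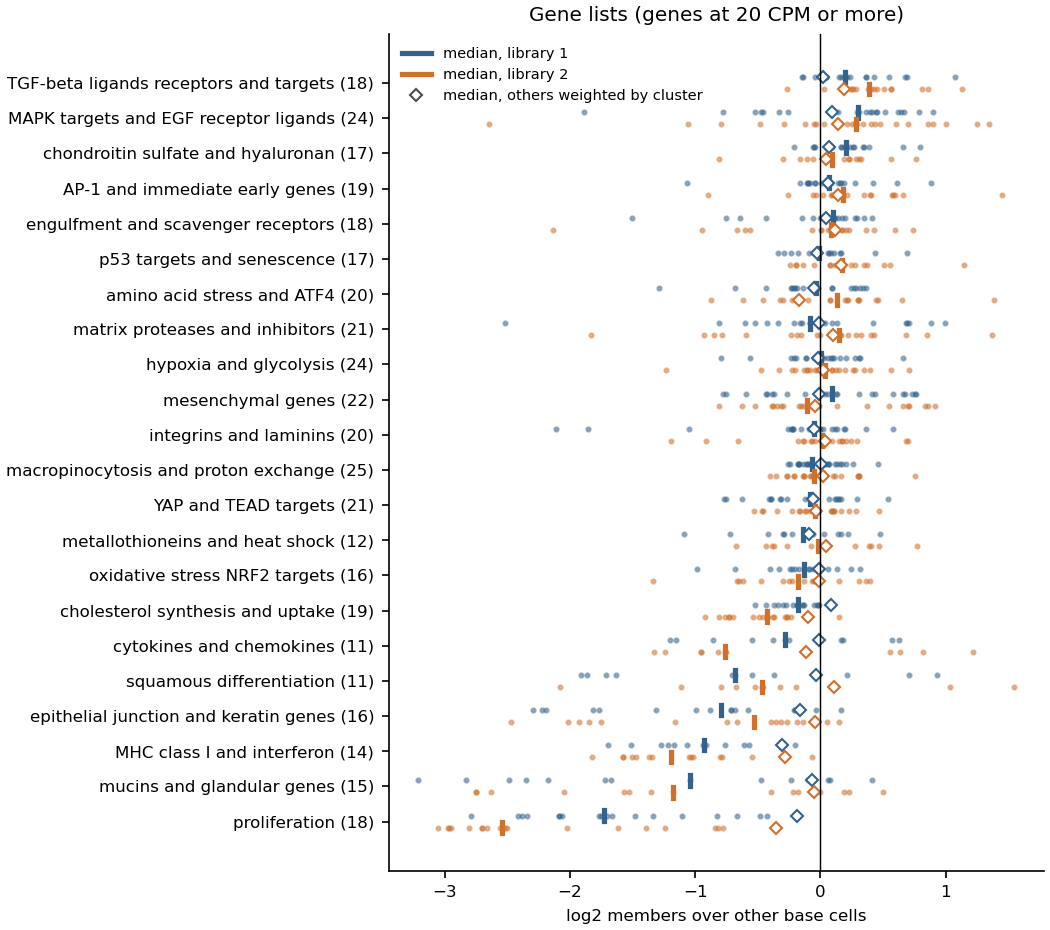
Log2 ratio of involucrin-high cells to other base cells (horizontal) for the tested genes of each list (dots, blue library 1, orange library 2), with the number tested in parentheses and bars at the list medians. Diamonds are the medians when the other base cells are weighted to the cluster shares of the involucrin-high cells: for proliferation they are -0.18 and -0.35 over the 5 genes tested there, beside -1.73 and -2.54 over the 18 genes tested without weights.

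The median ratio of genes lying beside each selecting gene was close to that of all tested genes. Megf10 and Chsy3 both lie on chromosome 18, Ivl on chromosome 3 (92570902 to 92573735, minus strand) and Mmp3 on chromosome 9 (7445822 to 7455975, plus strand; GENCODE vM21, the mm10 assembly). Over up to 20 tested genes on each side (25 in all for Mmp3, 40 for the others) the median log2 ratios were 0.003 and -0.04 beside Ivl, -0.05 and 0.01 beside Mmp3, 0.05 and 0.07 beside Megf10, and 0.05 and 0.04 beside Chsy3. Single neighbors stood away from these medians: Lor (0.93 and 1.54) and Sprr1a (0.70 and 1.04) lie on the same stretch of chromosome 3 as Ivl, and Mmp10 (0.99 and 0.32) and Mmp13 (0.69 and 0.16) lie beside Mmp3.

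Involucrin-high cells were spread over clusters made without the 4 genes, but unevenly. Of 20 clusters of base cells 18 held at least 1, and the 5 with most held 446 (84.8%) and 33.3% of all base cells. Cluster 1 held 232. They made up 22.9% of its cells in library 1 (20.2 to 25.7) and 7.59% in library 2 (4.93 to 11.1), and its leading genes were Gc, Dkk2, Fgfr1, Gas1 and Csdc2. Cluster 4, led by Cited1, Cck, Thbd, Aqp3 and Sprr2h, held 84 (14.6% and 5.81%). Cluster 10, led by the amino acid stress genes Aldh1l2, Chac1, Trib3, Mthfd2 and Asns, held 66 (11.6% and 8.85%). Cluster 6, led by Cyp4b1, Ambp and Gkn3, held 42 (7.21% and 1.53%), and cluster 15, led by Col11a2, Kifc2 and Ebf4, held 22 (11.7% and 8.64%). The cluster led by mitotic genes such as Troap, Nusap1 and Ube2c held 3 of its 1127 cells, and the cluster led by Gkn2, Muc5ac and Tff1 held 3 of 664. The cluster led by interferon-inducible Gbp4, Iigp1 and Tap1 held 3 of 661.

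**Figure D4:**
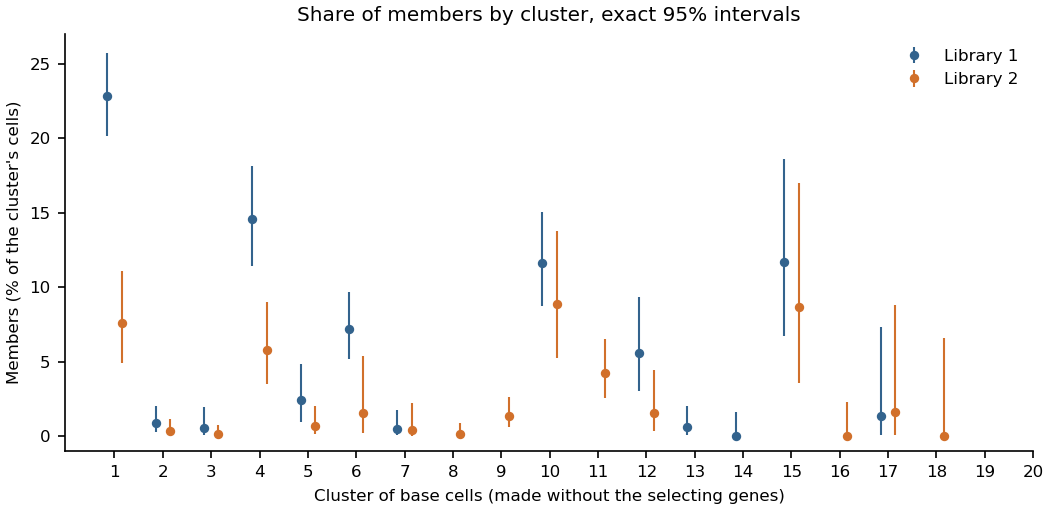
Share of cells that are involucrin-high (vertical, %) in each cluster of base cells (horizontal) by library, with exact 95% intervals, for clusters with at least 50 cells in that library. Shares run from 22.9% in cluster 1 of library 1 to 0 in clusters 14, 16 and 18.

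The higher share in library 1 was seen within clusters. Where both libraries had 50 cells or more, in 11 clusters, the share was higher in library 1 in 10, with intervals apart in 2. Over these clusters the shares were 9.21% and 2.34%, and library 1 stood at 5.68% when its cells were weighted to the cluster sizes of library 2. Clusters 8, 9, 11, 13, 14, 16 and 18 each had under 50 cells in 1 library, so library and cluster cannot be told apart there. Clusters 19 and 20 had under 50 cells in each library.

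Involucrin-high cells of different clusters differed in other genes, while their Ivl level was set by the choice. Ivl ran from 1570 CPM in the involucrin-high cells of cluster 6 to 2414 CPM in those of cluster 11, among clusters with at least 15 such cells. Mmp3 was at 266, 316 and 262 CPM in clusters 1, 6 and 10 but at 53.01 CPM in cluster 4 and 27.2 CPM in cluster 11. Sprr1a was at 499 CPM in cluster 1 and at 1122, 1163, 1264 and 1103 CPM in clusters 4, 6, 10 and 11. In clusters 12 and 15 it was at 777 and 263 CPM. The stress gene Chac1 stood at 136 CPM in involucrin-high cells of cluster 10 and 146 CPM in its other cells, and Gas1 at 291 CPM in those of cluster 1 and 102 CPM in those of cluster 4. Cluster 11, led by Tktl1, Il11, Insm1, Glp1r and Scg2, held 19 involucrin-high cells of library 2 and 2 of library 1, with Aqp3 at 656 CPM and Scg2 at 247 CPM.

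Most of the contrast with other base cells lay between clusters. The clusters were made from variable genes of these same cells, with only the 4 genes left out. Genes of the contrast could help set them, so a smaller contrast within clusters is partly built in. When the other base cells were weighted to the cluster shares of the involucrin-high cells, 0 genes were 2-fold higher and 0 were 2-fold lower in both libraries. At 1.5-fold, 2 were higher, Sprr1a (0.80 and 0.72) and Angptl4 (0.64 and 0.70), and 16 were lower, among them Lamb3 (-1.13 and -0.88), Krt7 (-0.65 and -0.76), Tff1 (-0.67 and -0.75) and H2-K1 (-0.64 and -0.71). The 5 genes listed above as 2-fold higher kept a positive ratio, at 0.42 and 0.49 for Adra2a, 0.50 and 0.66 for Slc20a1, 0.53 and 0.45 for Id3, 0.46 and 0.87 for Cdh6, and 0.51 and 0.78 for Ripply1. The MHC class I and interferon median was -0.31 and -0.29, with 9 of 10 tested genes below 0 in both libraries. Of all 7915 genes tested with these weights 3173 were below 0 in both. The squamous median was -0.04 and 0.11 and the mucin median -0.07 and -0.05. Within cluster 1 alone Slc20a1 stood at 887 against 607 CPM in library 1 and at 693 against 468 CPM in library 2. Within cluster 4 Krt7 stood at 98.1 against 167 CPM and at 75.5 against 179 CPM.

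Other genes varied with the selecting share below the cut as well. Base cells were placed in 10 bins of that share, with all cells at 0 in bin 1, and the involucrin-high cells were taken out of bin 10 as a group of their own. From bin 5 to bin 10 and on to the involucrin-high cells, Slc20a1 went from 288 through 622 to 790 CPM in library 1 and from 332 through 670 to 777 CPM in library 2. Fn1 went from 5388 through 10067 to 11005 CPM and from 5439 through 8542 to 9893 CPM. Krt7 went the other way, from 670 through 166 to 104 CPM and from 301 through 143 to 111 CPM. Mki67 stood at 46.8 and 61.3 CPM in bin 5 and at 7.35 and 8.11 CPM in bin 10. Bin 1, cells with no UMI of the 4 genes, held 455 and 1035 cells and had median depths of 7106 and 8508 UMIs, below the 15239 or more of the other bins.

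**Figure D5:**
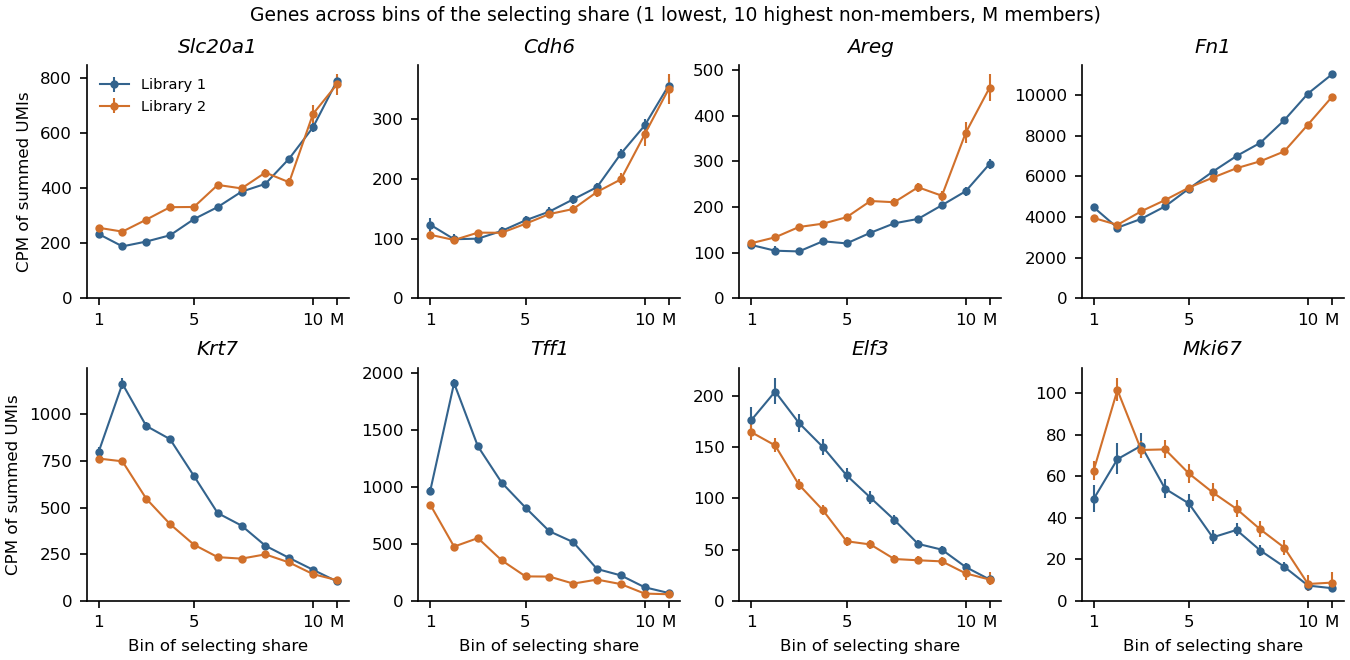
CPM of summed UMIs (vertical) of 8 genes over 10 bins of non-selected base cells by their share of the 4 selecting genes (1 holds the cells with none, 10 the highest) and in the involucrin-high cells (M), by library, with exact Poisson 95% intervals. Slc20a1, Cdh6, Areg and Fn1 are higher and Krt7, Tff1, Elf3 and Mki67 lower in M than in bin 5 in both libraries.

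Involucrin-high cells of the libraries were alike in most genes. Of 5367 genes at 50 CPM or more in 1 library, 21 were at least 2-fold higher in library 2 (0.391%) and 11 at least 2-fold lower (0.205%), and in other base cells the same genes gave 7 and 5. Scg2, a granin of secretory vesicles, stood at 3.72 and 59.9 CPM (log2 3.69, against 0.72 in other base cells), with 47.7% of its library 2 UMIs in 3 cells. Aqp3, an aquaglyceroporin, stood at 32.5 and 178 CPM (2.42 against 1.07). Rrs1 stood at 37.6 and 138 CPM, Qrfp at 71.3 and 251 CPM, and Ggct at 85.2 and 274 CPM. Lower in library 2 were Muc5b, a gel-forming mucin, at 152 and 33.2 CPM (-2.16 against -1.64), Mcpt8 at 292 and 95.9 CPM (-1.60 against -0.71), Gabrp, a GABA receptor subunit, at 130 and 48.9 CPM (-1.40 against -0.28), and Itih2, Mcpt2 and Hist1h2bc (-1.32 to -1.36). Scg2 and Aqp3 are genes given above for cluster 11, which supplied 17.6% of the involucrin-high cells of library 2 and 0.478% of those of library 1. Proliferation genes had a median log2 ratio of library 2 to library 1 of 0.32 in involucrin-high and 0.90 in other base cells, and MHC class I and interferon genes of 0.37 and 0.72.

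Most marker lists of other cell types summed to low levels, apart from the mesothelial list. The summed level of 12 macrophage or monocyte markers was 474 and 416 CPM in involucrin-high cells, 506 and 568 CPM in other base cells and 16784 CPM in Ptprc-positive cells of library 1. The 8 T or NK cell markers summed to 5.18 and 6.92 CPM, the 8 endothelial markers to 27.4 and 24.0 CPM and the 8 neutrophil markers to 14.9 and 9.68 CPM, with 0 of these reaching the 20 CPM of a tested gene. The 10 fibroblast markers summed to 159 and 212 CPM, against 182 and 237 CPM in other base cells and 99880 CPM in collagen-high stromal cells of library 1. They include Col1a1, Col1a2 and Col3a1, which the gate capped in base cells and which chose the stromal cells. The low sum and the contrast with stromal cells were therefore largely set in advance. The mast cell or basophil list reached 294 and 97.3 CPM through 1 gene, Mcpt8, while its other markers stayed under 20 CPM and Ms4a2 was at 0. The 6 mesothelial markers summed to 1000.3 and 1194 CPM in involucrin-high cells, 2383 and 2291 CPM in other base cells, 561 and 444 CPM in Ptprc-positive cells and 680 and 601 CPM in collagen-high stromal cells. The tested genes among them were Krt19, also a duct epithelial keratin, at 569 against 1413 CPM and 647 against 1448 CPM, and Msln, mesothelin, at 430 against 969 CPM and 546 against 842 CPM, and Upk1b was at 0. The acinar genes Prss1, Prss2, Amy2a5, Cela3b and Pnlip and the glial gene Sox10 were at 0. Clusters 12, 18, 19 and 20 of the base cells, whose leading genes include macrophage, T cell and endothelial genes, held 21 involucrin-high cells. Without these clusters 6 genes were 2-fold higher and 168 lower, and library 1 supplied 79.6% of the chosen cells.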

How the data were processed

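Single-cell RNA of 2 pools of 4 pancreatic tumors (DMSO or EIPA) was measured with probes. The authors deposited raw UMI counts per gene and barcode in 1 matrix of 19059 genes and 24282 cells, where the submitters' processing notes name Cell Ranger 8.0.0 and the build mm10. The other steps of that processing are not given in the sources used here. The libraries were told apart by the number at the end of the barcode, which no label ties to a treatment.

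Counts were summed over selected and other base cells within each library and scaled to a total of 1000000 (CPM). Log2 ratios use CPM plus 1. A gene was tested at 20 CPM or more in either group of both libraries and called at 2-fold in both. Named genes are the called genes with the ratio nearest 0 largest (up to 25 higher, 12 lower), without genes whose 3 highest cells held over 50% of UMIs in a library, the 6 highest and 6 lowest of library 2 against library 1 at 50 CPM or more with intervals apart, and examples from the lists. Only 5 genes were called higher, so 20 between 1.5-fold and 2-fold were added after the data were seen. The members and lists were chosen with earlier results of these data known. Stromal cells had at least 3% collagen UMIs and Ptprc-positive cells at least 0.05% Ptprc UMIs, both with keratin under 0.2%.

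Clusters came from 2000 variable genes, 30 components and 15 neighbors without the 4 genes, at Leiden resolution 1 (scanpy 1.11.5, leidenalg 0.10.2, igraph 0.11.9). Scrublet scores marked the highest 0.8% per 1000 cells. Factors for the scaling alternatives came from edgeR 4.0.16 in R 4.3.3. Python 3.11.15, numpy 2.4.6, scipy 1.17.1, pandas 2.3.3 and matplotlib 3.10.9 were used, and the 2-fold call was tested on simulated data. Of the genes, 19048 of 19059 had a position in GENCODE vM21, and 12 rows with duplicated symbols stayed out of the lists. Results for some genes are not reported here.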

Additional observations from a re-analysis of the deposited data

Results flagged for a closer look

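For 2 genes involucrin-high cells stood at least 1.5-fold above other base cells in one library and at least 1.5-fold below in the other, and the difference between libraries was not tested. Atg9b, an autophagy gene, had a log2 ratio of -0.76 in library 1 and 0.59 in library 2, a difference of 1.35. Hspa1b, a heat shock protein gene, was at -1.09 and 0.77, a difference of 1.85, and 3 cells held 72.0% of its library 2 UMIs in involucrin-high cells.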

How the results depend on the processing

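The alternatives with 1.5-fold, without shared barcodes and without clusters 12, 18, 19 and 20 were chosen after seeing the data. The 5 genes 2-fold higher became 15 with the top 2.5% of cells, 3 with the top 10%, 0 with cells thinned to 3000 UMIs, 1 when chosen without Ivl, 2 with a pseudocount of 10 CPM, 3 with a filter of 50 CPM, 11 with no filter, 2 without the 3 highest cells and 66 at 1.5-fold. The 169 lower genes became 110 (thinned), 47 (without Ivl), 102 (pseudocount 10), 55 (50 CPM), 429 (no filter) and 360 (1.5-fold). With other base cells weighted to the clusters 0 were higher and 0 lower, and at 1.5-fold 2 and 16. Library 1 supplied 49.6% when the top 5% was taken within each library, which sets equal shares, and 75.7% without Ivl. The 21 genes higher in library 2 became 66 (thinned), 112 (without Ivl), 199 (no filter) and 13 (without the 3 highest cells), and the 11 lower became 20 (top 2.5%), 64, 18, 204 and 26. The largest cluster held 68.1% of the cells at resolution 0.5 and 30.4% at resolution 2, against 44.1%.

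Chosen without Ivl, values of library 2 turned in sign: the proliferation median 0.27, the MHC class I and interferon median 0.21, Slc20a1 -0.074, Ube2c 0.51, Hist1h1b 0.75, Mki67 0.30, Rrm2 0.022, Pimreg 0.25, Socs2 -0.15, Areg -0.45, Egr3 -0.22, Angptl4 -0.18, Rgs2 -0.0041, Grem1 -0.026, Sept5 -0.077 and Lgr6 -0.063. Sept5 was at -0.10 when thinned and Gc at -0.11 without its 3 highest cells, both in library 2. The cause was not tested. Of the remaining list medians 917 moved little and 49 moved more, and of named gene values 1453 and 346. No paired analysis was possible because each treatment has 1 library. Library 2 holds 108 of the cells and 2168563 of their UMIs, which limits its rarer genes.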
